A study of Mus musculus with 5 samples.

Results

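Expressed noncoding RNA genes were examined in bone marrow-derived macrophages (BMDMs) that had shared medium with 4T1 cells, a BALB/c mammary cancer line. Genes were selected on their measured level: a gene was counted as a member when each of its listed transcripts carried a RefSeq noncoding accession and its expected counts, summed over transcripts, averaged 100 or more over the 5 libraries, with genes on X and Y left out. Of 17058 genes listed in any library, 1395 were noncoding by this rule, 176 of them reached the mean of 100, and 165 remained after 11 genes on X or Y were removed. All 165 had a count in each of the 5 libraries. Membership rested on the mean level over both groups, so levels are given as a description. Near the limit a difference between groups could itself bring a gene in: 11 members had a mean under 100 counts in WT and 3 had one in Adam17-/- libraries. Just inside the limit lay 9330175E14Rik with a mean of 101 counts, Gm10825 with 102 and AI506816 with 103. Just outside it lay 1500015A07Rik with 99.8, E130102H24Rik with 98.6 and Gm13238 with 98.5.

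The libraries came from Balb/c BMDMs, grown from flushed bone marrow with M-CSF and kept for 48 h with 4T1 cells behind a porous membrane. The cancer cells were WT in 2 libraries and Adam17 knock-out in 3 libraries (here WT coculture and Adam17-/- coculture, with the latter's replicates called KO). ADAM17 is a protease that sheds membrane-bound signaling molecules. The deletion was made by CRISPR in the 4T1 line, while the macrophages that were sequenced kept their own Adam17, so its level in these libraries checks nothing. All 3 knock-out libraries carry the same line designation, ADAM17 knock-out 2.8, so that effects of Adam17 and of other features of that line cannot be told apart. Neither the labels nor the methods say whether the libraries are separate cultures or donors, and p-values measure the spread between libraries, which may be technical.

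Noncoding RNAs act in several unrelated ways. Nuclear long noncoding RNAs (lncRNAs) such as Malat1 and Neat1 stay at the chromatin or in nuclear bodies, Malat1 in splicing speckles and Neat1 as the scaffold of paraspeckles. Small nucleolar RNA (snoRNA) host genes carry in their introns the guide RNAs that direct modification of ribosomal RNA, while their spliced exons are often short-lived, and microRNA (miRNA) hosts are the primary transcripts from which miRNAs are cut. Processed pseudogenes are copies of messenger RNAs, often too like their parent gene for a read to be placed with certainty.

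Libraries were made from RNA bound to poly-T beads, and the 3′ ends of 3 nuclear members are therefore shown. The last 60 bases of 4 GENCODE transcripts on GRCm38, all on the minus strand, are given 5′ to 3′, with the polyadenylation signal AATAAA in capitals where a search on the RNA strand found it. They lie at chr19:5842307-5842366, chr19:5824708-5824767, chr19:5795690-5795749 and chr9:78175303-78175362.
Neat1, short transcript: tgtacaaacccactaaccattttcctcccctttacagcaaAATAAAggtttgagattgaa
Neat1, long transcript: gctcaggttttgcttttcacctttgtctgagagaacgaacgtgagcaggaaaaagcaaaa
Malat1: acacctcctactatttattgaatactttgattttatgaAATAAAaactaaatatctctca
Rn7sk: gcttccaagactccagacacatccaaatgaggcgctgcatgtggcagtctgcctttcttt
The signal was found in the short Neat1 and Malat1 windows and not in those of long Neat1 or Rn7sk. These windows are annotated ends. Whether the RNAs in these libraries, Malat1 among them, end there or carry a poly-A tail was not measured. It occurs in 27.2% of 141515 GENCODE transcript ends of this length (4.82% for its reverse complement). The longest run of A was 12 bases in the Malat1 transcript, 7 in long Neat1 and 3 in Rn7sk.

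For the miRNA hosts, the mature miRNAs carried are shown because the members are named for, or span, these short RNAs, which the libraries themselves did not measure. Sequences are from RefSeq (GRCm38.p6, plus strand), with the seed, bases 2 to 8, in capitals. Mir22hg on chromosome 11 carries miR-22, with its arms at chr11:75463734-75463755 and chr11:75463772-75463793. A330023F24Rik on chromosome 1 spans miR-29b-2 and miR-29c, whose 3p arms lie at chr1:195037091-195037113 and chr1:195037600-195037621.
miR-22-5p: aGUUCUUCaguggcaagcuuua
miR-22-3p: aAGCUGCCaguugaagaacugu
miR-29b-3p: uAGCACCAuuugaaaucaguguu
miR-29c-3p: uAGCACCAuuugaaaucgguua
The 3p arms of miR-29b and miR-29c share the seed AGCACCA.

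Noncoding genes were on balance higher in macrophages from the Adam17-/- coculture. Of the 165 members, 66 rose and 10 fell at an adjusted p of 0.05 or less (edgeR quasi-likelihood test with Benjamini-Hochberg adjustment over 12576 genes), and 89 did not pass. Among all genes tested, 14.9% rose and 16.8% fell, against 40% and 6.06% of members. Among the 9404 genes outside the noncoding set that also averaged 100 counts or more, 13.9% rose and 21.4% fell. The median log2 fold change of the members was 0.30, beside 0.01 over all genes tested, and 128 of 165 had a value above 0. With a log2 fold change of 1 or more as a further limit, 9 members rose and 2 fell, beside 3.36% and 0.867% of all genes tested and 1.11% and 0.649% of the genes outside the noncoding set at that level. In 90 members each Adam17-/- library lay above both WT libraries, and in 16 each lay below, beside 28.4% and 29.7% of all genes tested and 24.6% and 36.3% of the genes outside the noncoding set at that level. Without the 14 members whose mean was under 100 in 1 of the groups, which were set aside once the data had been seen, 57 of 151 rose (37.7%) and 9 fell (5.96%). The count of members that fell varied with the libraries used, at 10 with all 5, 5 without KO replicate 1 and 6 without KO replicate 3. Over all genes tested, 2114 of 12576, 926 of 12479 and 1237 of 12408 fell in these fits.

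**Figure D1:**
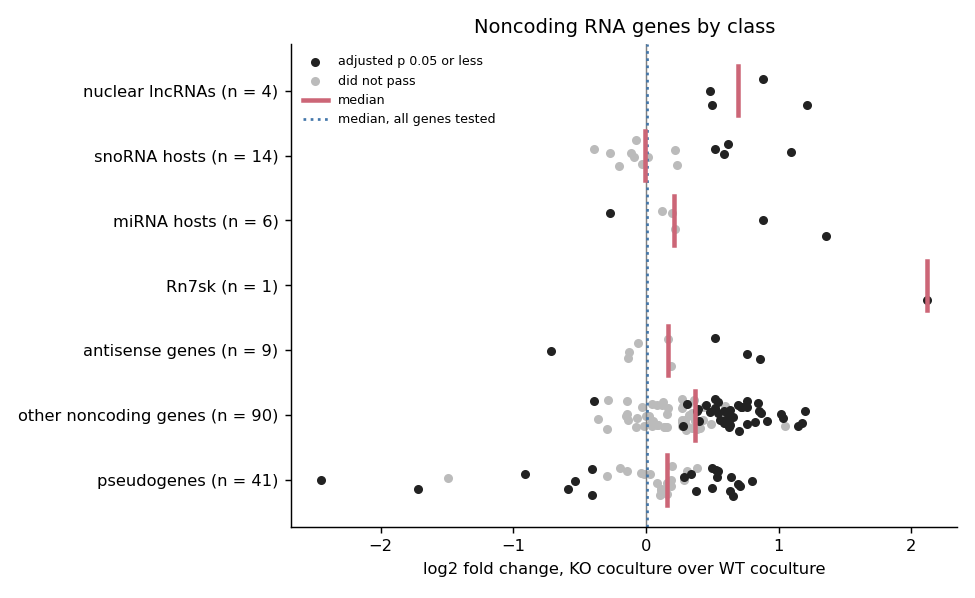
Log2 fold change (Adam17-/- over WT coculture) of the 165 noncoding genes, 1 point per gene, by class. Red bars are class medians, black points passed an adjusted p of 0.05, and the dotted line is the median of all genes tested at 0.01. The 4 nuclear lncRNAs lie between 0.48 and 1.21, while the snoRNA hosts are centered near 0 at -0.01.

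Members took a larger share of each library in the Adam17-/- coculture. Their share of all counts was 1.32% and 1.35% under WT coculture and 2.17%, 2.06% and 1.98% under Adam17-/- coculture, with no overlap. Library totals ran from 14658694 to 20788373 expected counts, and the WT libraries differed more from each other (chi-square per degree of freedom 25.7) than any pair of Adam17-/- libraries (5.22 to 6.32). Malat1 made up 13.6% and 17.8% of the member counts in WT and between 25.3% and 26.4% in Adam17-/- libraries, whereas Neat1 held between 24.5% and 27.5% of them in both groups. When the members were left out of the scaling, again 66 rose and 10 fell.

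Other cell types and the macrophage state moved with the groups, and their part in the member counts was not tested. Macrophage markers were abundant in all libraries, with a summed level of 29278 to 30304 CPM (read counts scaled to library size) in WT and 18996 to 21221 CPM in Adam17-/- libraries, and 9 of 11 fell (81.8%, beside 16.8% of all genes tested). Granule genes of neutrophil precursors rose in 10 of 13 cases (76.9%, beside 14.9% of all genes tested), with summed levels of 1374 to 1401 CPM in WT and 2266 to 2550 CPM in Adam17-/-. Mmp8, which did not pass, made up most of the WT sum, and without it the sums were 374 to 461 CPM in WT and 1263 to 1449 CPM in Adam17-/-. Megakaryocyte and platelet genes rose in 10 of 12 cases (83.3%), from 168 to 193 CPM to 238 to 377 CPM. Of 14 epithelial genes, which would mark 4T1 cells, 3 were high enough to be tested, 1 of these rose (33.3%), and the sum was 14.6 to 16.3 CPM in WT and 16.1 to 19.4 CPM in Adam17-/-. Most of that sum was Cdh1, with 10.6 to 13.2 CPM, while Epcam was at 0.0541 CPM in WT replicate 2 and at 0 in the other libraries, and Krt5 was listed in none. In bulk RNA, fewer cells of a type and less RNA per cell cannot be told apart.

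All 4 nuclear lncRNAs rose. Malat1, which associates with splicing speckles, was at 1945 and 2508 CPM in the WT libraries and at 5454, 5019 and 4977 CPM in the Adam17-/- libraries. Each Adam17-/- library thus lay well above both WT libraries, although WT replicate 1 was the lower of its pair. Mean levels were 2226 ± 398 CPM (SD, n = 2) and 5150 ± 264 CPM (n = 3), a 2.31-fold difference, with a log2 fold change of 1.21 (SE 0.12) and an edgeR adjusted p of 4.02e-04. Without WT replicate 1 the log2 fold change was 1.03 and without WT replicate 2 it was 1.40.

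Neat1, the paraspeckle scaffold, was the most abundant member per transcript length, with 1106 ± 69.2 FPKM (fragments scaled to transcript length and depth) in WT and 1728 ± 167 FPKM in Adam17-/- libraries. Its counts were 3950 and 3452 CPM in WT and 5620, 5342 and 4710 CPM in Adam17-/-. The groups did not overlap, and the rise of 0.50 on the log2 scale (SE 0.11, edgeR adjusted p = 0.00947) was smaller in size than that of Malat1. Malat1 and Neat1 lie on chromosome 19 at 5795690-5802672 and 5824708-5845480 on the minus strand. The difference between their changes was not tested.

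The deposited table splits Neat1 into a transcript of 3190 bases and one of 20771 bases that contains it. Reads were assigned almost wholly to the short form. The long form received 0.668% and 0.584% of Neat1 counts in WT and 0.738%, 0.656% and 1.15% in Adam17-/- libraries, and the difference in this share did not pass (exact two-sided permutation p = 0.5, where 0.1 is the smallest p that 2 against 3 libraries allow). No AATAAA was found in the last 60 bases of the long form shown above, and its share in RNA not selected on poly-T beads was not measured.

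Kcnq1ot1, the paternally expressed antisense transcript that silences neighboring imprinted genes, was at 108 and 138 CPM in WT and 235, 224 and 221 CPM in Adam17-/- libraries. It rose by 0.88 on the log2 scale (SE 0.11, edgeR adjusted p = 8.01e-04). Kcnq1, on the opposite strand, had a mean of 0.0532 CPM in WT and 0.192 CPM in Adam17-/- and was too low to be tested. Tug1, a lncRNA tied to gene repression at the chromatin, was at 149 and 171 CPM in WT and 236, 214 and 221 CPM in Adam17-/-, a rise of 0.48 (SE 0.09, edgeR adjusted p = 0.00445).

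Within Tug1 the transcript of 5127 bases took 2.36% and 3.17% of the counts in WT and 14.0%, 9.26% and 11.0% in Adam17-/- libraries. The transcript of 4731 bases went from 71.4% and 64.3% to 53.8%, 61.7% and 60.4%. Both shares were without overlap between groups and both reached the smallest p that the design allows (exact permutation p = 0.1). They are not independent, since the shares of a gene add up to its total, and transcript counts are model estimates. Of the members, 27 had more than 1 transcript listed, and transcripts of Zeb2os, Morrbid and other members also reached this p.

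**Figure D2:**
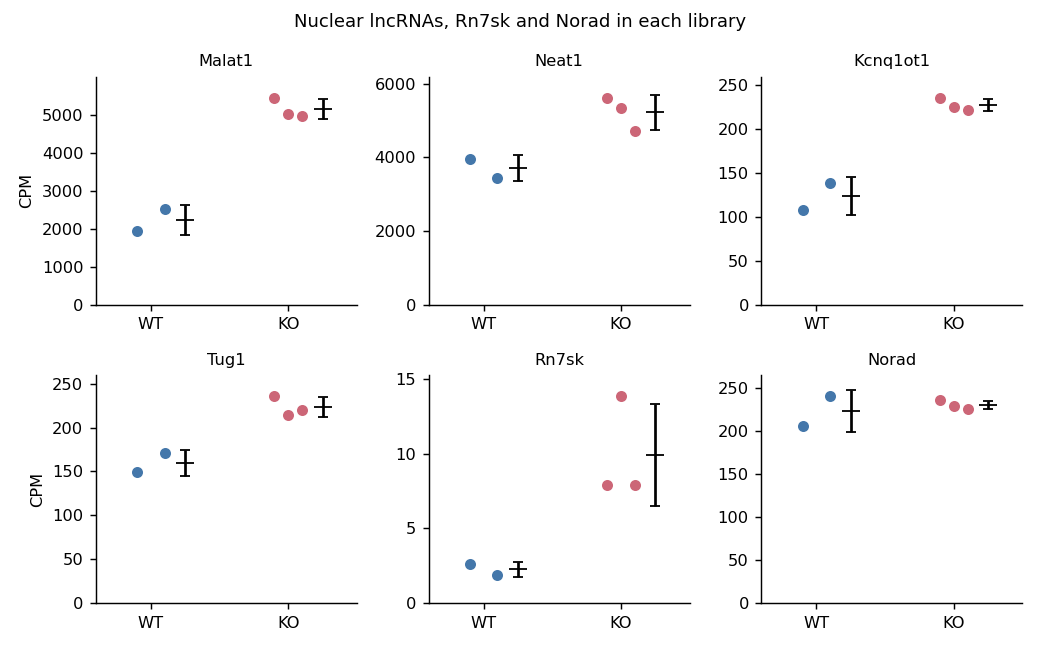
CPM in each library for 4 nuclear lncRNAs, Rn7sk and Norad, with mean ± SD beside the points (WT n = 2, Adam17-/- n = 3). Each Adam17-/- library lies above both WT libraries except for Norad, at 206 and 240 CPM in WT and 226 to 236 CPM in Adam17-/-.

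Rn7sk, the RNA that holds the transcription elongation factor P-TEFb inactive, was at 2.62 and 1.89 CPM in WT and at 7.94, 13.9 and 7.94 CPM in Adam17-/- libraries. The Adam17-/- values were all higher, with KO replicate 2 the highest. Its mean was 42.5 counts in WT and 169 counts in Adam17-/- libraries, so that it reached the limit of 100 only through the latter, and its log2 fold change of 2.12 is given as a description. Rn7sk is made by RNA polymerase III and ends without a poly-A tail. Replication-dependent histone messages also lack such a tail. Of 18 tested from that list, which was chosen after the data were seen, 5 rose (27.8%, beside 14.9% of all genes tested), and their summed level was 52.2 to 61.8 CPM in WT and 66.6 to 74.1 CPM in Adam17-/- libraries. The part of poly-A selection in the Rn7sk and Malat1 differences was not tested.

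Norad, a cytoplasmic lncRNA that binds PUMILIO proteins, had a log2 fold change of 0.04 (SE 0.09, edgeR adjusted p = 0.730) at a level of 43.1 FPKM in WT and 49.2 FPKM in Adam17-/-, beside 29.3 and 44.9 FPKM for Tug1. It did not pass the test.

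Of 14 snoRNA hosts, 4 rose (28.6%, beside 14.9% of all genes tested) and 10 did not pass, with a median log2 fold change of -0.01. Counting hosts that carry an annotated Snora or Snord gene or bear the name Gas5 or Snhg left 11, of which 2 rose. Without WT replicate 2, 2 of the 14 hosts fell, Snhg17 and AI506816, and with library sizes alone the median of the 14 was 0.14 beside 0.16 for all genes.

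Gas5, the host of several C/D-box snoRNAs whose spliced RNA builds up when translation stops, was at 44.7 and 37.0 CPM in WT and 37.7, 34.6 and 44.0 CPM in Adam17-/- libraries. The groups overlapped, with KO replicate 2 below both WT libraries. Its log2 fold change of -0.07 (SE 0.12, edgeR adjusted p = 0.678) was positive with library sizes alone and without WT replicate 1. Snhg12, Snhg8, Snhg5 and 1110038B12Rik likewise had log2 fold changes between -0.11 and 0.01 and overlapping groups. Snhg17 was at 23.6 and 20.8 CPM in WT and 19.3, 18.6 and 17.4 CPM in Adam17-/-, without overlap, but did not pass (log2 fold change -0.27, edgeR adjusted p = 0.0795). Snhg14, the long host of the Snord115 and Snord116 clusters, and Snhg20 differed between the WT replicates, at 15.3 and 23.1 CPM and at 20.1 and 12.5 CPM, and did not pass. Snhg14 passed at 0.54 without WT replicate 2 (edgeR adjusted p = 0.00541), and Snhg20 at 0.62 without WT replicate 1 (edgeR adjusted p = 0.00220).

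The hosts that rose were Snhg3, 2410006H16Rik, 9330159M07Rik and 6530403H02Rik. Snhg3, the host of the U17 snoRNA, was at 10.4 and 12.6 CPM in WT and 17.7, 17.6 and 14.3 CPM in Adam17-/- libraries, a rise of 0.52 (SE 0.14, edgeR adjusted p = 0.0220) that was lost without WT replicate 1, KO replicate 1 or KO replicate 2. Another host, 2410006H16Rik, was at 12.1 and 14.4 CPM in WT and 21.8, 19.5 and 19.9 CPM in Adam17-/-, a rise of 0.62 (SE 0.12, edgeR adjusted p = 0.00527). Both had whole counts in every library, whereas for Snhg3 71.5% of the exon bases overlap an annotated gene on the opposite strand, whose reads cannot be told apart without strand. The remaining hosts, 9330159M07Rik and 6530403H02Rik, at log2 fold changes of 0.59 and 1.09, are hosts only in that a predicted snoRNA lies in their span, and 9330159M07Rik lost its call under the replicate block (adjusted p = 0.0671) and without WT replicate 2, KO replicate 2 or KO replicate 3. With a mean of 85 counts in WT, 9330159M07Rik reached the limit of 100 only through the Adam17-/- libraries.

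Start regions of these hosts are shown because host transcripts of this class often begin with a run of pyrimidines. Each window runs from 10 bases before to 30 bases after a RefSeq start (GRCm38.p6), 5′ to 3′, with its longest run of C and T in capitals. They lie at chr1:161034591-161034630 and chr1:161035156-161035195 for the annotated Gas5 starts and at chr4:132308668-132308707, chr3:123508307-123508346, chr9:88522868-88522907, chr4:132353657-132353696 and chr11:62602867-62602906 for the others in the order shown, on the minus strand for Snhg8, Snhg5 and Snhg3 and on the plus strand otherwise.
Gas5, start 1: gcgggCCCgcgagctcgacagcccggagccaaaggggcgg
Gas5, start 2: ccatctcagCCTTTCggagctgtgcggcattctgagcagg
Snhg12: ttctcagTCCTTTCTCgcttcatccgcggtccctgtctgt
Snhg8: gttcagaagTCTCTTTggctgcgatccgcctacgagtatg
Snhg5: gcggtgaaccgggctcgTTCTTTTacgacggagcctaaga
Snhg3: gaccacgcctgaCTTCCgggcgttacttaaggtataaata
2410006H16Rik: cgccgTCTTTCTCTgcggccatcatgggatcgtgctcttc
Runs of 9 were present both in Snhg12, which did not pass, and in 2410006H16Rik, which rose, and a run of 9 or more occurs in 9.17% of 32851 promoter windows of this length. Snhg3 had a run of 5, the median of all windows, and the first Gas5 start a run of 3, while the run of 7 in Snhg5 lies past the annotated start.

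**Figure D3:**
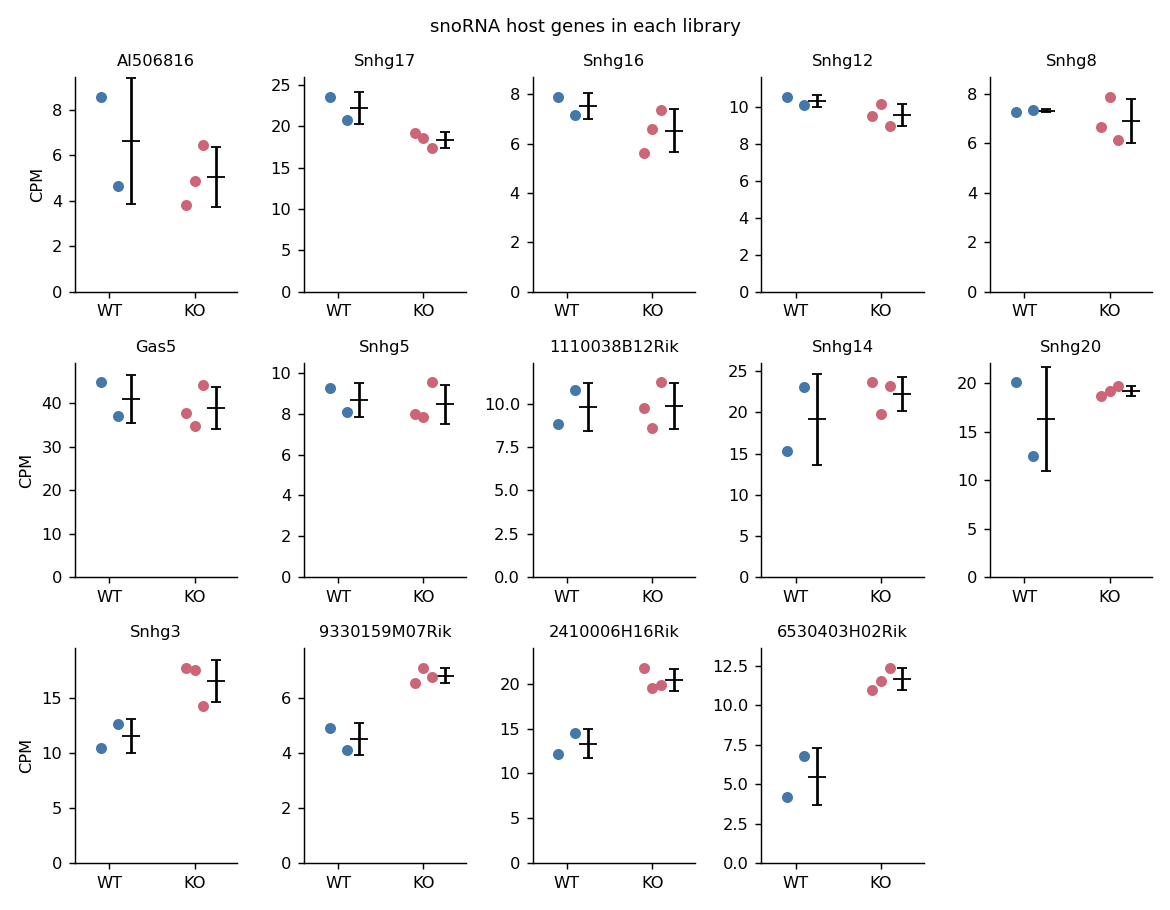
CPM in each library for the 14 snoRNA host genes, ordered by log2 fold change from AI506816 to 6530403H02Rik, with mean ± SD beside the points (WT n = 2, Adam17-/- n = 3). In 10 panels the difference did not pass the test, and in the last 4 each Adam17-/- library lies above both WT libraries.

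Proteins that act with these RNAs were read from lists. Of 17 proteins of the snoRNA particles and their assembly, 10 fell (58.8%, beside 16.8% of all genes tested) and the others did not pass (edgeR). Their median was -0.43, and the summed level was 435 to 458 CPM in WT and 301 to 318 CPM in Adam17-/- libraries. Fibrillarin, encoded by Fbl, the methyltransferase of C/D-box particles, was at 52.8 and 46.4 CPM in WT and 28.5, 29.9 and 31.3 CPM in Adam17-/- (log2 fold change -0.73, SE 0.10, edgeR adjusted p = 9.62e-04). Nolc1 and Tcof1, nucleolar phosphoproteins, fell by 0.83 and by 0.73 on the log2 scale. Of 39 protein-coding snoRNA hosts, 1 rose, Eif4a2, and 10 fell, among them Eif4a1, Hspa8 and Eef2, with a median of -0.12. The share that fell, 25.6%, was near the 21.4% of genes outside the noncoding set at 100 counts or more.

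Nuclear speckle proteins are splicing factors and their kinases, and paraspeckle proteins bind Neat1. Of 22 nuclear speckle proteins 13 rose (59.1%, beside 14.9% of all genes tested) and 9 did not pass (edgeR), with a median of 0.38. The splicing kinase gene Clk1 was at 258 and 287 CPM in WT and at 611, 564 and 529 CPM in Adam17-/- libraries, a rise of 1.06 (SE 0.10, edgeR adjusted p = 2.92e-04), and Clk4, Luc7l3, Srsf11 and Rbm25 rose by 0.96, 0.95, 0.75 and 0.75. Of 18 paraspeckle proteins 5 rose (27.8%) and 4 fell (22.2%), beside 14.9% and 16.8% of all genes tested, with a median of 0.01. The core genes Sfpq and Nono had values of -0.24 and -0.12 and did not pass, Pspc1 fell by 0.51, and Cpsf6 and Hnrnph3 rose by 0.59 and 0.76. Nonsense-mediated decay factors, which degrade many spliced noncoding RNAs, rose in 4 and fell in 4 of 19 cases (21.1% each), near the 14.9% and 16.8% of all genes tested, with a median of -0.02.

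**Figure D4:**
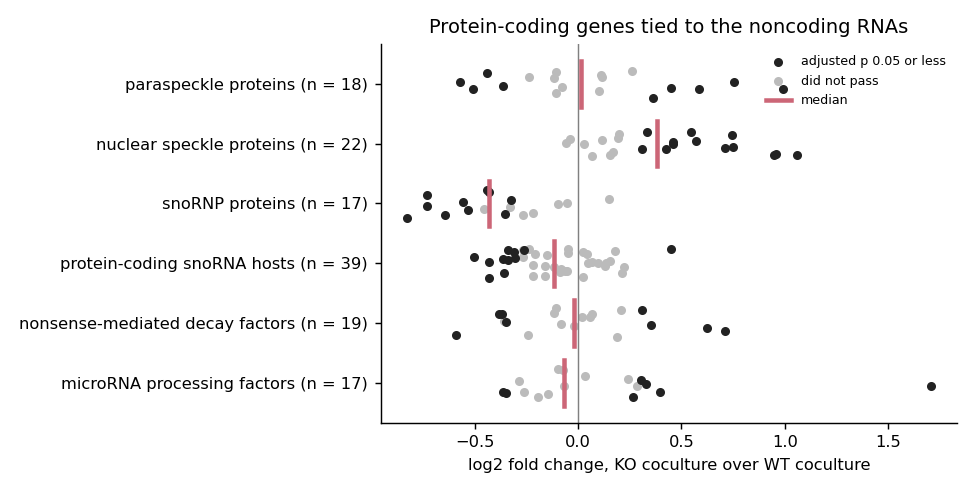
Log2 fold change (Adam17-/- over WT coculture) of protein-coding genes in 6 lists tied to noncoding RNAs, 1 point per gene tested. Red bars are medians, at 0.38 for nuclear speckle proteins and -0.43 for snoRNP (snoRNA particle) proteins, and black points passed an adjusted p of 0.05.

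Of 6 genes in the miRNA host class, 2 rose (33.3%) and 1 fell (16.7%), beside 14.9% and 16.8% of all genes tested. Mir22hg, whose span includes miR-22, was at 97.9 and 99.6 CPM in WT and at 82.9, 80.5 and 82.0 CPM in Adam17-/- libraries, with tight groups that did not overlap. It fell by 0.27 on the log2 scale (SE 0.08, edgeR adjusted p = 0.0256), and this call was lost with library sizes alone (adjusted p = 0.244) and upper quartile factors, under limma on FPKM, under the replicate block (0.211) and without any KO replicate. A330023F24Rik, which spans the miR-29b-2 and miR-29c hairpins, was at 10.8 and 8.98 CPM in WT and 20.8, 16 and 17.8 CPM in Adam17-/-. Each Adam17-/- library was higher, and the rise was 0.88 (SE 0.15, edgeR adjusted p = 0.00267). Cd46, which overlaps it on the opposite strand, rose as well by 1.39, at a mean of 0.556 CPM in WT and 1.47 CPM in Adam17-/-, far below the level of A330023F24Rik.

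Mirt2 is in the class by its name and carries no annotated miRNA. It is a lncRNA induced by lipopolysaccharide in macrophages, where it restrains Toll-like receptor signaling. It was at 8.06 and 6.60 CPM in WT and 19.5, 18.2 and 18.5 CPM in Adam17-/- libraries, a 2.56-fold difference with a log2 fold change of 1.35 (SE 0.13, edgeR adjusted p = 3.52e-04) and no overlap. Spatc1 overlaps it on the opposite strand and rose by 1.46, at a mean of 0.397 CPM in WT and 1.11 CPM in Adam17-/-. Mir17hg, the miR-17-92 host, Mir1a-1hg and Slfn10-ps had log2 fold changes of 0.12, 0.20 and 0.22 and did not pass, although Slfn10-ps passed with library sizes alone, with limma on FPKM and without WT replicate 1. Of 17 miRNA processing factors tested, 5 rose (29.4%) and 2 fell (11.8%), beside 14.9% and 16.8% of all genes tested. Those that rose were Lin28a, Tnrc6a, Ago4, Tnrc6b and Ddx17, at 1.71, 0.39, 0.33, 0.30 and 0.27, and those that fell were Drosha, the nuclear miRNA-cleaving enzyme, at -0.36 and Ago2, the slicing Argonaute, at -0.35.

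The largest class comprised the 90 other noncoding genes, 79 of them annotated by RefSeq as lncRNA, 6 as protein coding and 5 without an entry in the RefSeq table used. The 6 did not pass (edgeR), with log2 fold changes of -0.30 to 0.36. Of the 90, 38 rose (42.2%) and 1 fell (1.11%), beside 14.9% and 16.8% of all genes tested. Their median log2 fold change was 0.37. Those that rose by 1 or more and have a symbol were Gm28043, AI504432, 4933406C10Rik and 5730480H06Rik, the last with a mean of 73 counts in WT and thus a member only through the Adam17-/- libraries. AI504432 was at 21.9 and 41.2 CPM in WT and 65.7, 69.5 and 78.5 CPM in Adam17-/- libraries. WT replicate 1 lay far below WT replicate 2, and the log2 fold change of 1.18 (SE 0.21, edgeR adjusted p = 0.00385) was 0.79 without WT replicate 1 and 1.70 without WT replicate 2. Gm28043 was at 13.4 and 10.7 CPM in WT and 30.3, 24.3 and 28.5 CPM in Adam17-/-, a rise of 1.20 (SE 0.14, edgeR adjusted p = 6.31e-04), with 35.8% of its exon bases overlapped by Ccdc167 on the opposite strand. Gt(ROSA)26Sor, the ubiquitously transcribed locus used for knock-in alleles, was at 4.61 and 16.8 CPM in WT and 25, 19.9 and 21.1 CPM in Adam17-/- and did not pass (log2 fold change 1.05, SE 0.38, edgeR adjusted p = 0.0607). The value was 0.39 without WT replicate 1 (edgeR adjusted p = 0.0490) and 2.25 without WT replicate 2 (edgeR adjusted p = 5.20e-06), and both passed. It was picked after its values were seen, for the spread in WT.

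Peg13, an imprinted lncRNA within an intron of Trappc9, was the 1 gene of this class that fell. It was at 56.5 and 55.3 CPM in WT and 40.1, 43.7 and 43.9 CPM in Adam17-/- libraries (log2 fold change -0.39, SE 0.09, edgeR adjusted p = 0.00876), and the call was lost with library sizes alone, with limma on FPKM, under the replicate block and without KO replicate 1. Trappc9 fell too, by 0.31.

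Of the genes named after their values were seen, AW112010, an interferon- and lipopolysaccharide-induced transcript, was at 9.11 and 12.1 CPM in WT and 21.3, 16.6 and 19.1 CPM in Adam17-/- libraries, a rise of 0.84 (SE 0.16, edgeR adjusted p = 0.00429). Gdap10, whose span overlaps Nampt, the enzyme of NAD salvage, was at 14.1 and 16.7 CPM in WT and 28.4, 25.2 and 33.0 CPM in Adam17-/- and rose by 0.91, while Nampt rose by 0.61. Chaserr, which restrains the neighboring chromatin remodeler gene Chd2, was at 12.5 and 22.1 CPM in WT and 33.2, 29.1 and 25.8 CPM in Adam17-/-. It rose by 0.76 (SE 0.21, edgeR adjusted p = 0.0216), a value of 0.40 without WT replicate 1 and 1.23 without WT replicate 2, and did not pass without KO replicate 1 or KO replicate 2. Chd2 itself was at -0.08 and did not pass.

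Of 9 antisense genes, 3 rose (33.3%) and 1 fell (11.1%), beside 14.9% and 16.8% of all genes tested. Bach2os was at 9.84 and 8.50 CPM in WT and 17.1, 15 and 14.4 CPM in Adam17-/- libraries and rose by 0.76 (SE 0.13, edgeR adjusted p = 0.00342). Bach2, a transcriptional repressor on the opposite strand, rose by 0.76 as well, from 14.4 to 24.5 CPM, and 24.6% of the Bach2os exon bases overlap exons on that strand. Cep83os rose by 0.86, whereas Cep83, 41 bases away, was at 0.03 and did not pass. Fam120aos rose by 0.52, a call lost without WT replicate 1, KO replicate 1 or KO replicate 2, and Ttc39aos1 fell by 0.72 from 9.89 and 7.74 CPM to 5.80, 5.07 and 5.19 CPM, with a mean of 93.7 counts in Adam17-/- libraries, under the limit of 100.

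Across members, a protein-coding neighbor, the nearest or one whose span overlaps, was tested for 124. Next to the 42 members that rose with a tested neighbor, 10 neighbors rose, 4 fell and 28 did not pass, with a median of 0.16. Where the spans overlapped, 5 of 17 neighbors rose and 2 fell. The shares of neighbors that rose were 23.8% and 29.4% and those that fell 9.52% and 11.8%, beside 14.9% and 16.8% of all genes tested, and the difference was not tested. Frmd8, next to Neat1, had a value of -0.13 and did not pass. Of the 50 members with exon overlap on the opposite strand, 21 rose (42%) and 2 fell (4%). Of the 104 without it, 40 rose (38.5%) and 7 fell (6.73%). The medians were 0.37 and 0.28.

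**Figure D5:**
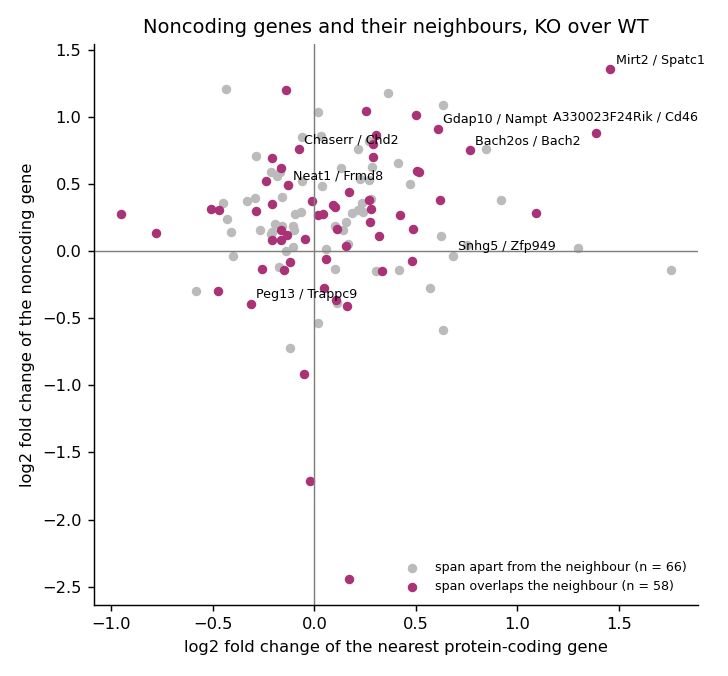
Log2 fold change (Adam17-/- over WT coculture) of 124 noncoding genes on the vertical axis and of the nearest protein-coding gene on the horizontal axis, in purple where the spans overlap. Mirt2 with Spatc1 and A330023F24Rik with Cd46 lie at the upper right.

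The 41 pseudogenes were mixed, with 14 that rose, 7 that fell and 20 that did not pass, and a median of 0.16. This class held 7 of the 10 members that fell, a share of 17.1% of its genes, near the 16.8% of all genes tested, and 34.1% of its genes rose, beside 14.9%. In all libraries 5 of the 41 had whole counts, while the others had fractional counts in at least 1 library, and their values are uncertain. Gm10052 was at 59.8 and 16.2 CPM in WT and 4.65, 3.88 and 12.1 CPM in Adam17-/- libraries (log2 fold change -2.45, SE 0.53, edgeR adjusted p = 0.00833), with a gap between the WT libraries larger than that from WT replicate 2 to the Adam17-/- libraries. Without WT replicate 1 the value was -1.22. Rpl14-ps1 was at 24.6 and 16.7 CPM in WT and 12.8, 3.95 and 1.96 CPM in Adam17-/- (log2 fold change -1.72, SE 0.51, edgeR adjusted p = 0.0308), which DESeq2 did not call (adjusted p = 0.173). That call was also lost with library sizes alone and without WT replicate 1, KO replicate 2 or KO replicate 3, and the value was -2.81 without KO replicate 1. Its parent Rpl14, a ribosomal protein gene, had a value of 0.29 and did not pass.

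Atp6v0c-ps2, a copy of the proton pump subunit gene Atp6v0c, was assigned 1026 and 789 CPM in WT and 576, 643 and 590 CPM in Adam17-/- libraries and fell by 0.59. The parent was assigned 98.8 ± 39.8 CPM and 51.8 ± 3.21 CPM and fell by 0.93, so that the copy held 809% to 1241% of the parent's CPM. Nutf2-ps1 and Gm6793 fell by 0.54 and 0.91, the former not without KO replicate 1. In the other direction Mrgpra6, at 470 and 505 CPM in WT and 797, 753 and 725 CPM in Adam17-/-, rose by 0.64 (SE 0.09, edgeR adjusted p = 0.00106), and Ppp4r1l-ps, 1 of the 5 with whole counts, was at 10.9 CPM in both WT libraries and 18.5, 17 and 18 CPM in Adam17-/- and rose by 0.71.

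Members were divided by length into groups of near-equal size. Of members above 3436 bases, 29 of 55 rose (52.7%) and 1 fell (1.82%). Of those between the limits, 22 of 54 rose (40.7%) and 2 fell (3.70%). Of those up to 1766 bases, 15 of 56 rose (26.8%) and 7 fell (12.5%). The medians were 0.38, 0.30 and 0.16. With the same limits, genes outside the noncoding set at 100 counts or more had medians of -0.01, -0.06 and -0.10. Of them 17.1%, 13.5% and 7.90% rose, and 21.3%, 22.0% and 20.7% fell. At each length the members had the higher median, and the trend with length was not tested.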

How the data were processed

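Messenger RNA of 5 BMDM libraries (2 WT and 3 Adam17-/- cocultures, 48 h) was selected on poly-T beads and sequenced on a BGISEQ-500, with no strand marking stated. The deposited tables give, per transcript, expected counts and FPKM. Per the labels, the authors used Bowtie2, RSEM and mm10, and their methods name HISAT and GRCm38. Transcripts not listed in a library were taken as 0.

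For each gene the expected counts of its transcripts were added and rounded to integers. Groups were compared in edgeR 4.0.16 (R 4.3.3, filterByExpr, TMM, quasi-likelihood test, Benjamini-Hochberg adjustment over 12576 genes), and CPM uses TMM-scaled library sizes. FPKM, normalized by the authors for length and depth, served for levels between genes and for limma 3.58.1 on log2(FPKM + 0.1) as an alternative, beside DESeq2 1.42.0. The edgeR step was tested on simulated counts of 12576 genes for the same comparison. It recovered 100 of 100 genes changed by 1 and 100 of 100 changed by 1.5 on the log2 scale, with 5 false calls. Each simulated gene had the same spread in both groups, and only genes above a set level were changed. The real WT libraries differed more from each other than any pair of Adam17-/- libraries, so these rates may not hold for them. A floor of 3 counts equals 0.157 to 0.197 CPM over the libraries, which covers counting error only. A whole count lies within 0.01 of an integer.

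Symbols, spans and strands came from RefSeq (GRCm38.p6) and GENCODE vM21. Of the 165 members, 5 have no symbol and 6 no chromosome in these tables, 150 matched a GENCODE gene, 154 have a strand, 6 are annotated as protein coding, and 90 have a RefSeq promoter window. The class with snoRNA or miRNA hosts includes genes with such an RNA inside their span. Named were Malat1, Neat1, Kcnq1ot1, Gas5, the nuclear lncRNAs and hosts, in every class the 3 members of highest level and, among those that passed without overlap, up to 5 with the largest change in each direction, members past a log2 fold change of 1, members nearest the limit of 100, neighbors of named members and genes of a list described. Members and lists were chosen with earlier results of these data known. The result for 1 neighboring gene is not reported here.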

Additional observations from a re-analysis of the deposited data

How the results depend on the processing

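With library sizes alone, limma on log2(FPKM + 0.1) and limma on log2(FPKM + 1), the median of all genes shifted to 0.16, 0.15 and 0.11. In that order, 93, 86 and 87 members rose while 5, 6 and 6 fell. Of all 12576 genes, 3019, 2927 and 2867 rose while 1077, 1016 and 1011 fell. Upper quartile factors gave 73 and 9, DESeq2 62 and 9, and no filter 72 and 10. Over all genes these gave 2237 and 1624, 1581 and 1893, and, with no filter, 2044 and 2177 of 17018. Requiring a log2 fold change of 1 left 9 and 2, whole counts left 24 (38.1%) and 3 (4.76%) of 63, and no exon overlap on the opposite strand left 40 (38.5%) and 7 of 104. Chosen after seeing the data, no exon overlap on either strand left 36 (41.9%) and 6 (6.98%) of 86, and leaving out pseudogenes left 52 and 3 (2.42%) of 124, both from smaller sets. Leaving out single libraries gave 47 to 69 that rose and 5 to 16 that fell. With 1 WT library left, it was assumed to vary like the Adam17-/- libraries.

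The replicate numbers did not pair the libraries, since deviations of same-numbered libraries correlated at -0.12 and -0.05. With the replicate block, 52 members rose and 6 fell, beside 1216 and 1126 of all 12576 genes tested.

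Of 52 named members 34 passed, and these kept their direction under all 14 alternatives run for each, while 25 of them passed under every alternative that kept both WT replicates. Znf41-ps did not pass without KO replicate 1 or KO replicate 2 (edgeR adjusted p = 0.0545 and 0.0523). Of those that did not pass, Slfn10-ps and Gm20605 passed with library sizes alone (adjusted p = 0.0177 and 0.0432), under both limma settings and without WT replicate 1, Pisd-ps3 with library sizes alone (0.0410), and Oip5os1 without WT replicate 2 (0.0119). Some changed sign. In the order of library sizes alone and limma with 0.1 and with 1 added, Brip1os was at 0.0871, 0.0891 and 0.0838, Gas5 at 0.0752, 0.0707 and 0.0670, Snhg12 at 0.0330, 0.0350 and 0.0335, Snhg8 at 0.0573, 0.0564 and 0.0523, and Snhg5 at 0.11, 0.11 and 0.10, with 0.0241 under upper quartile factors. Under the replicate block 1110038B12Rik was at -0.0883. Without single libraries, the range was -0.13 to 0.16 for 1110038B12Rik, -0.76 to 0.12 for AI506816, -0.21 to 0.0683 for Gas5, -0.0115 to 0.30 for Gm20605, -0.0676 to 0.16 for Norad, -0.0235 to 0.42 for Oip5os1, -0.0032 to 0.21 for Pisd-ps3, -0.0539 to 0.54 for Snhg14, -0.0662 to 0.62 for Snhg20, -0.13 to 0.0671 for Snhg5 and -0.17 to 0.00953 for Snhg8. The cause of these changes was not tested.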
